A study of Arabidopsis thaliana with 6 samples.

Results

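The sites described here were stretches of Arabidopsis chromatin with a high ENAP1 ChIP peak in air, an ENAP1 peak at the same place in ethylene, and no peak in either ENAP1-EIN2 reChIP list. They were selected on measured values, namely as peaks of the air ENAP1 list with a pileup (tags stacked at the summit) of at least 80 that overlapped an ethylene ENAP1 peak by 1 bp or more and overlapped no reChIP peak. Of the 9712 air ENAP1 peaks, 2138 had such a pileup, 2067 of these overlapped an ethylene ENAP1 peak, and 966 of these met the whole rule. The other 1101 high shared peaks, which overlapped a reChIP peak, served as the comparison.

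The series compared ENAP1 ChIP, ENAP1-EIN2 reChIP and input in whole Col-0 seedlings aged 3 days, grown in the dark at 24 °C and treated for 4 hours either with hydrocarbon-free air or with the same air carrying 10 ppm ethylene. All ChIP and reChIP groups shared the first precipitation, with an antibody against green fluorescent protein; the reChIP groups had a further precipitation with an antibody against EIN2. The labels name no tag or promoter for ENAP1, and no control precipitation with that antibody was used here. Each of the 4 groups with a peak list was 1 library, so no value has a replicate check, no p-value is given, and the intervals are exact binomial 95% intervals that cover counting error only.

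ENAP1 is a nuclear protein of the trihelix family that binds EIN2. EIN2 is a membrane protein that, once ethylene is perceived, is cleaved so that its C-terminal end reaches the nucleus. The reChIP therefore sought DNA that carried both proteins, and the sites below are those with a high ENAP1 signal at which that second precipitation left no called peak.

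The lists differed greatly in depth. The ENAP1 ChIP libraries kept 8400099 tags in air and 8811720 in ethylene after duplicates were removed, and the reChIP libraries kept 644263 and 304818. The ethylene reChIP list was called against the air reChIP library, so a site without a peak in it had no gain called relative to that library. If a reChIP library had held the same share of its tags at a site as the ENAP1 library of that treatment, the sites would have given a median of 8.82 reChIP tags in air (7.21 to 16.9) and 4.31 in ethylene (2.01 to 8.34). The lowest called reChIP pileup was 3 tags in air and 2 in ethylene, and the list medians were 5 and 4. In ethylene a call also needed an excess over the scaled air reChIP library. The 4.31 tags can therefore not be read against the lowest called pileup alone. At the 368 high shared peaks with an air reChIP peak, the median reChIP pileup was 7 tags where the same sum gave 10.4. At the 835 with an ethylene reChIP peak, which were chosen by such an excess, it was 8 tags where the sum gave 4.98. These sums ignore the shorter fragments of the reChIP libraries (112 and 146 bp, against 160 bp in the air ENAP1 ChIP). Whether a low reChIP signal at the sites could have been detected at this depth and against these controls was not tested.

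The 966 sites made up 46.7% of the high shared peaks (44.6 to 48.9). Another 266 (12.9%) overlapped an air reChIP peak only, 733 (35.5%) an ethylene reChIP peak only, and 102 (4.93%) both. Over all 7020 shared air ENAP1 peaks, of any height, 67.4% (a count that includes the sites) had no reChIP peak, beside the 46.7% of the high ones. The sites were spread evenly over the chromosomes, from 45.0% of the high shared peaks on chromosome 3 to 47.8% on chromosome 1.

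The share without a reChIP peak was lower in each higher class of ENAP1 pileup. It was 58.7% (55.4 to 61.9) at a pileup of 80 to under 100, 43.6% (40.0 to 47.2) at 100 to under 130, 28.8% (24.1 to 34.0) at 130 to under 170, and 8.20% (2.72 to 18.1) at 170 or more, where 5 of 61 peaks were sites. Below the limit it was 69.1% at 50 to under 80 and 86.1% under 30. The sites accordingly leaned to lower pileups, with a median of 98.0 (80.1 to 188) against 111 (80.1 to 269) for high shared peaks with a reChIP peak. The quartiles overlapped, at 87.8 and 113 for the sites and 94.6 and 132 for those peaks. The sites were also narrower, with a median width of 334 bp against 403 bp, and a wider peak has more room for an overlap. The part of width in these shares was not tested. Between pileups of 80 and 100 the median widths were 310 and 352 bp.

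**Figure D1:**
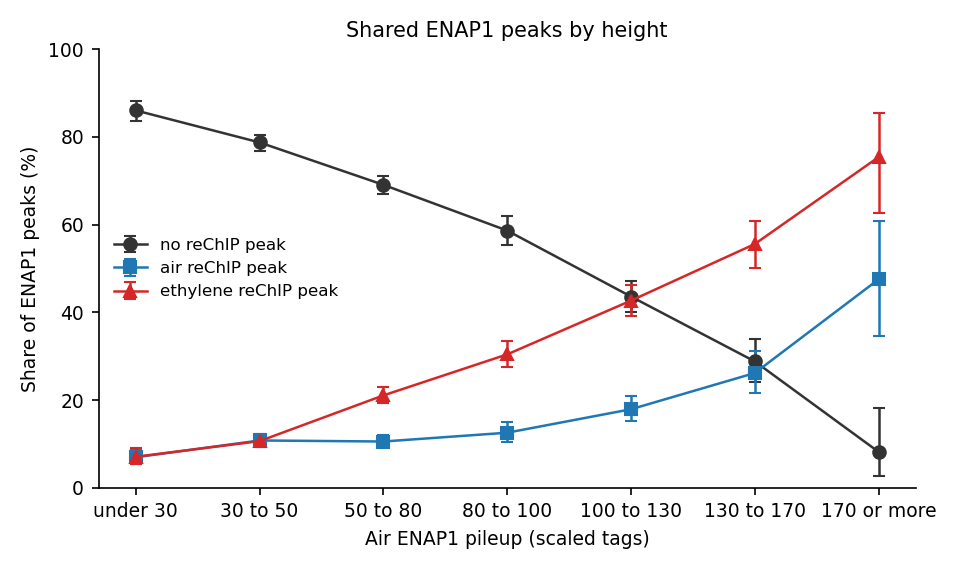
Share of shared ENAP1 peaks (y axis, percent) with no reChIP peak (black circles), an air reChIP peak (blue squares) or an ethylene reChIP peak (red triangles), by air ENAP1 pileup (x axis, scaled tags); bars are exact binomial 95% intervals. The black line runs from 86.1% under a pileup of 30 to 8.20% at 170 or more, and both coloured lines run the other way.

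The air and ethylene reChIP lists stood in different relation to the enrichment over the control. Fold enrichment, as the authors deposited it, is the pileup over the local control with 1 added to each. Among the high shared peaks, an air reChIP peak was found at 1.79% of those with an air ENAP1 fold under 2 and at 53.1% (44.1 to 61.9) of those at 9 or more. An ethylene reChIP peak was found at 39.3% and 41.5% of the same classes, and between 38.2% and 42.8% in the classes between them. The sites had a median fold of 3.48 in the air ENAP1 list, close to the 3.71 of peaks with only an ethylene reChIP peak, and below the 5.95 of those with only an air reChIP peak and the 7.01 of those with both. The median control level under them was 2.07 times the median of the list, against 2.14, 1.31 and 1.33 times in the same 3 groups. The air reChIP and the air ENAP1 ChIP were called against the same control library. With the ethylene ENAP1 fold, which rests on another control, an air reChIP peak was found at 7.98% of peaks under 4-fold. At 4-fold or more it was found at 28.5%. The part of the control level in this relation was not tested. The 2 reChIP lists also differed in the strength of their calls. The MACS2 q-value was 0.05 or lower at 19.4% of all air reChIP peaks and 57.5% of all ethylene reChIP peaks. Among the high shared peaks it was that low at 46.7% of the 368 with an air reChIP peak. For the 835 with an ethylene reChIP peak the share was 87.8%. The part of this difference in the contrast between the lists was not tested.

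Within each class of height, the share of sites was lower where the fold was 4 or more. At a pileup of 80 to under 100 it was 50.9% (45.4 to 56.4) against 63.2% (59.1 to 67.2) for folds under 4. At 100 to under 130 it was 35.5% against 52.5%, and at 130 or more it was 22.9% (18.1 to 28.3) against 31.7% (23.7 to 40.6), where the intervals overlap.

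**Figure D2:**
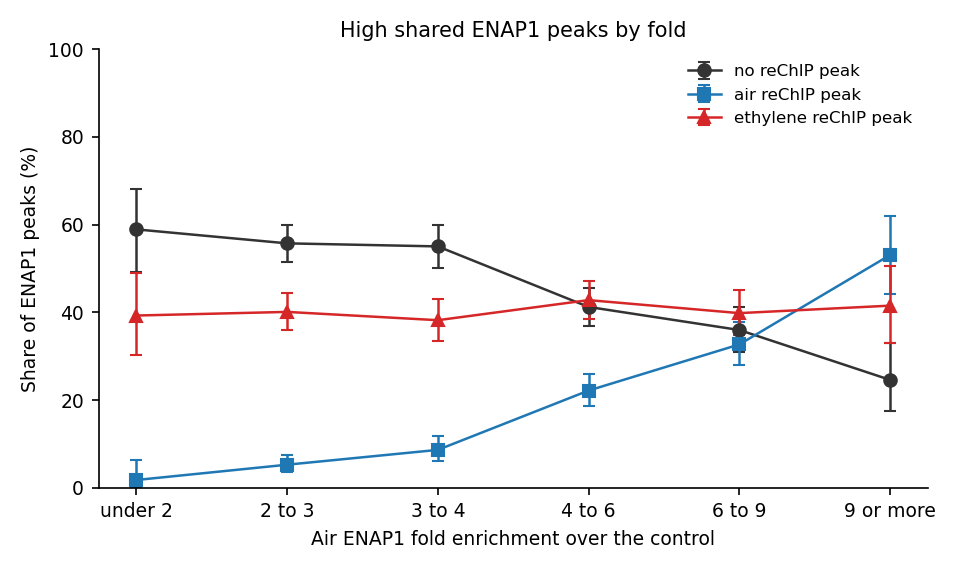
Share of the 2067 high shared ENAP1 peaks (y axis, percent) with no reChIP peak, an air reChIP peak or an ethylene reChIP peak, by air ENAP1 fold enrichment over the control (x axis); bars are exact binomial 95% intervals. The air reChIP share rises from 1.79% to 53.1%, while the ethylene reChIP share stays between 38.2% and 42.8%. The 2 reChIP lists were called against different controls.

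The 12 sites of highest ENAP1 pileup lay in or beside 12 different genes. The highest pair, with an air pileup of 188 each, lay in AT3G10030 (3:3094731-3095066) and in AT5G65520 (5:26189821-26190149). The pileup per 1000000 tags of the library, called normalised pileup below, was 26.3 in air and 27.0 in ethylene at AT3G10030. At AT5G65520 it was 26.3 and 27.4. The phosphofructokinase gene PFK6 (AT4G32840), which encodes a glycolytic enzyme, had the third (4:15848294-15848664), with a normalised pileup of 25.6 in air and 24.4 in ethylene. Its air fold of 16.5 was the highest of the whole air ENAP1 list. The nearest reChIP peaks to it lay 1624 bp away in air and 13573 bp away in ethylene.

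AT1G33290 (pileup 177), the lipid phosphate phosphatase gene LPPbeta (172) and GONST2 (168), which encodes a Golgi nucleotide sugar transporter, followed. The next were AT1G06380 (167), ATZW10 (166), named after ZW10, a factor of the spindle checkpoint and of vesicle traffic in animals, and ABCB29 (165), which encodes an ABC transporter. AT2G26730 (164), FIP2 (163) and AT4G18230 (163) closed the first 12. In all 12 the ethylene to air ratio of normalised pileup lay between 0.886 (GONST2) and 1.07 (ATZW10), and each ratio's exact counting interval included 1. Of these 12 summits, 11 lay inside the gene, at 30 to 320 bp from its edge, and that at AT1G06380 lay 106 bp outside.

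Ranked by fold in the ethylene ENAP1 list, the first sites were APD1 (15.0-fold; 2:15999682-16000354), AT5G04250 (15.0-fold), AT1G19430 (13.5-fold) and HINT4 (12.8-fold), a gene for a histidine triad nucleotide-binding protein. AT2G24650 (12.3-fold), ACHT1 (11.8-fold), a gene for a chloroplast thioredoxin, AT1G47570 (11.6-fold) and AT5G02220 (11.5-fold) followed. Their air pileups ranged from 108 at ACHT1 to 156 at AT5G04250. An ethylene reChIP peak lay 70 bp from the site at AT5G04250, whereas at ACHT1 the nearest lay 27657 bp away.

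Most sites had similar normalised pileups in air and in ethylene. The median ratio was 1.02, with quartiles of 0.935 and 1.09, and 836 of the 966 ratios lay between 0.833 and 1.2. The spread of the ratio over the sites, an SD of 12.5%, was no wider than the 13.0% that counting alone gives for the median site, which rested on 115 tags in air and 125 in ethylene before scaling. The median itself depends on the scaling between 2 single libraries: it was 0.992 with fold in place of pileup and 1.12 as a share of the pileup ceiling described below. High shared peaks with a reChIP peak had a median ratio of 1.02 and an SD of 11.3%. The rule asked only for an ethylene peak and not for its height. It did set a lower limit on the air pileup, which is the denominator of each ratio. The ratios are therefore not independent of the rule, and the part of this limit in them was not tested. Removal of duplicates caps the pileup, since at most 1 tag was kept per position and strand. The sites stood at 29.4 to 69.1% of that ceiling in air and at 19.1 to 79.3% in ethylene; the part of this ceiling in the narrow spread was not tested.

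**Figure D3:**
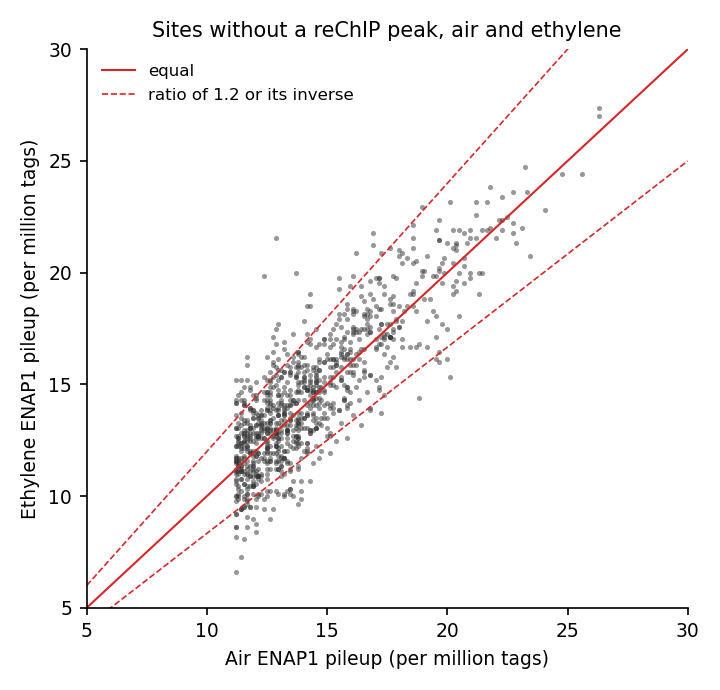
Normalised ENAP1 pileup in ethylene (y axis, tags per 1000000) against air (x axis, same unit) for the 966 sites, 1 point each; the solid line marks equality and the dashed lines ratios of 1.2 and 0.833. The points lie along the solid line, with 836 of them between the dashed lines and a straight left edge at the pileup limit.

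A ratio of 1.2 or more was found at 62 sites (6.42%, 4.96 to 8.15) and at 71 high shared peaks with a reChIP peak (6.45%, 5.07 to 8.06), beside 17.2% of all 7020 shared peaks. A ratio of 0.833 or less was found at 68 sites (7.04%, 5.51 to 8.84) and at 41 peaks with a reChIP peak (3.72%, 2.69 to 5.02), beside 9.84% of all shared peaks. Most of all shared peaks were lower, with a median air pileup of 58.0 against 98.0 at the sites. Their ratios rested on fewer tags, a median of 68.0 in air before scaling against 115. The part of this in the shares was not tested. Between pileups of 80 and 100 that lower class held 52 of 532 sites (9.77%, 7.39 to 12.6) and 21 of 375 peaks with a reChIP peak (5.60%, 3.50 to 8.43), with intervals that overlap.

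The highest ratios mostly compared different summits. At WAVH1, a gene for a ubiquitin ligase of the WAVY GROWTH family, 2 neighbouring air sites overlapped the same ethylene peak. The lower of them (2:9645879-9646319) had a ratio of 1.68, with the ethylene summit 316 bp away; the higher, beside it, had 1.02. The ratios of 1.60 at AT4G18670 and 1.46 at TPR14, a tetratricopeptide repeat gene, joined summits 639 and 827 bp apart. Those of 1.39 at AT3G06240 and 1.36 at AT1G14300 joined summits 75 and 10 bp apart. With summits at most 50 bp apart, which held for 907 sites, the ratio ranged from 0.588 to 1.36, with 54 sites at 1.2 or more and 63 at 0.833 or less.

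The lowest ratios lay at the same place in both treatments, with summits at most 34 bp apart. The diacylglycerol kinase gene DGK3 (2:8118826-8119080) had a normalised pileup of 11.2 in air and 6.58 in ethylene, a ratio of 0.588 (0.417 to 0.825). AT3G19895 followed at 0.635 (0.456 to 0.881), then AT4G27654, AT2G43150 and LBD41 at 0.698, 0.698 and 0.699. LBD41, which encodes a LOB-domain transcription factor known to be induced by low oxygen, had 13.8 in air and 9.65 in ethylene (interval of the ratio 0.522 to 0.932). All 5 counting intervals lay below 1, but these were the lowest of 966 and had air pileups of 80.1 to 98.9, so 4 of the 5 lay within 7 of the limit that chose the sites.

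**Figure D4:**
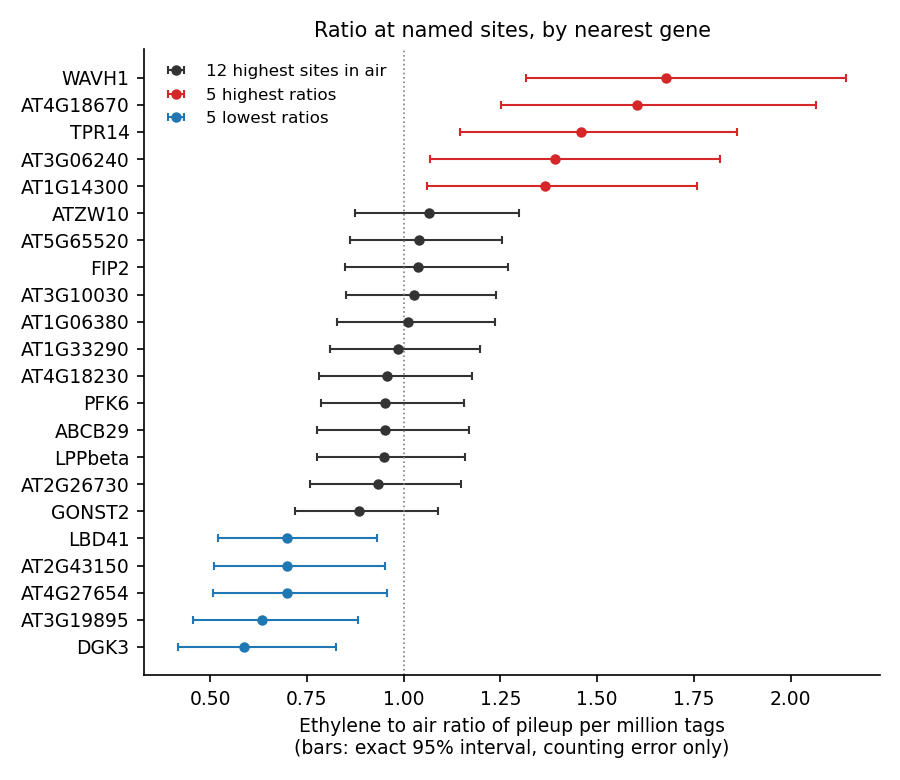
Ethylene to air ratio of normalised ENAP1 pileup (x axis) at the 12 sites of highest air pileup (black), the 5 of highest ratio (red) and the 5 of lowest ratio (blue), named by nearest gene; bars are exact 95% intervals for counting error only. The 12 highest sites lie between 0.886 and 1.07, the extremes at 0.588 and 1.68.

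Sites lay almost wholly inside genes. A protein-coding gene held 887 of the 966 summits, or 91.8% (89.9 to 93.5), against 88.0% (85.9 to 89.9) of high shared peaks with a reChIP peak and 72.3% of all air ENAP1 peaks. Within 200 bp inside an edge of the gene lay 51.3% of the sites (48.1 to 54.5) and 47.0% (44.1 to 50.05) of those peaks, and 40.5% and 41.0% lay deeper inside. Only 12 sites (1.24%) lay more than 1000 bp from any protein-coding gene, beside 2.45% of high shared peaks with a reChIP peak and 7.16% of all air ENAP1 peaks. By position, 48.9% of the high shared peaks just inside an edge were sites, 46.4% of those deeper inside and 37.4% (30.9 to 44.3) of the 211 outside genes. Split by air fold, these shares were 40.3%, 30.6% and 35.5% (28.0 to 43.6) at 4 or more. Under 4-fold they were 62.0%, 52.8% and 42.9% (29.7 to 56.8). The rank of the peaks outside differed between these fold classes, but their interval overlapped that of the deeper peaks in both. Strand was not used, so an edge can be the start or the end of a gene.

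The shares with each kind of reChIP peak also varied with position. An air reChIP peak was found at 11.8% (9.66 to 14.1) of the high shared peaks deep inside genes, 20.3% (17.9 to 22.9) of those just inside an edge and 29.9% (23.8 to 36.5) of those outside. Among peaks with a fold of 4 or more these shares were 27.7%, 28.8% and 38.1%, and under 4-fold they were 5.33%, 7.44% and 7.14%. An ethylene reChIP peak was found at 45.6% (42.2 to 49.0) of the deep peaks, 35.7% (32.7 to 38.7) of those at edges and 42.2% (35.4 to 49.2) of those outside. At folds of 4 or more these shares were 51.7%, 38.3% and 38.7%. Under 4-fold they were 43.2%, 31.8% and 51.8% (38.0 to 65.3 for the 56 peaks outside). Deep peaks stood above edge peaks in both classes. The rank of the peaks outside differed, but their interval overlapped that of the deep peaks in both classes.

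**Figure D5:**
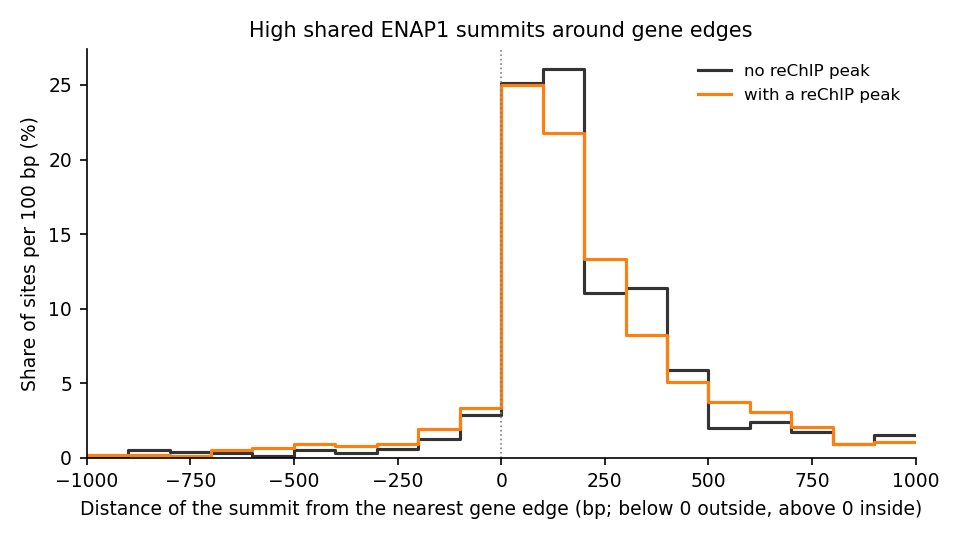
Share of summits per 100 bp (y axis, percent) by distance from the nearest edge of a protein-coding gene (x axis, bp; below 0 outside and above 0 inside), for the 966 sites (black) and the 1101 high shared peaks with a reChIP peak (orange). Both lines rise sharply at the edge and fall with distance inside, with 51.3% and 47.0% of summits in the first 200 bp inside.

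A missing peak at the site did not mean a missing peak at the gene. The sites gave 1449 protein-coding genes with a summit inside or within 1000 bp, which was 5.28% of 27444. Of these genes, 707 (48.8%, 46.2 to 51.4) had a reChIP summit elsewhere inside or within 1000 bp, beside 54.5% of all protein-coding genes and 69.1% of the other air ENAP1 targets. The choice of sites without reChIP overlap lowers the first share and raises the last. Another high shared peak with a reChIP peak lay at 78 of the 1449 genes, and 52 genes had 2 or more sites. The median distance from a site to the nearest reChIP peak of either list was 2007 bp, and 157 sites (16.3%) had one within 500 bp. An air reChIP peak lay that near to 6.11% of the sites and 6.68% of high shared peaks with only an ethylene reChIP peak. For an ethylene reChIP peak it was 10.5% (8.60 to 12.6) of the sites and 5.64% (3.19 to 9.13) of those with only an air reChIP peak.

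At the near end, an ethylene reChIP peak began 7 bp from the site at AT1G79060, 10 bp from that at PAP9, a purple acid phosphatase gene, and 16 bp from that at AT4G24110. An air reChIP peak lay 11 bp from the site at ATVPS33, a gene for vacuolar protein sorting. For these the status as a site rests on a few bases of peak edge. At the far end, the nearest reChIP peak lay 16263 bp from the site at XT1, a xyloglucan xylosyltransferase gene of the cell wall, and 17594 bp from that at AT1G79190. It lay 17812 bp away at TO1, a mitochondrial thioredoxin gene, and 17853 bp away at AT3G14320.

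The lists of ethylene genes had no member at a site. None of 42 genes in 4 lists (5 receptors, 12 signalling, 14 response and 11 biosynthesis genes) was given by a site, beside 5.28% of all protein-coding genes. At that share 42 genes would hold few members, so the count of 0 is not read as a result about these genes. Air ENAP1 peaks of any height gave 29 of the 42, beside 38.6% of all protein-coding genes. The lists were chosen with earlier results of these data known. High shared peaks with a reChIP peak gave 9 of the 42 (21.4%), beside 5.87% of all genes: 2 receptors, 2 signalling genes and 5 response genes. Over all 10 lists the sites gave 2 of 105 genes and the peaks with a reChIP peak gave 16. The 2 were ASA1 (WEI2), the anthranilate synthase gene of tryptophan and auxin synthesis, and COP1, the E3 ligase that represses light responses in the dark. ASA1 held a summit inside the gene (5:1722721-1723098), with a normalised pileup of 11.5 in air and 9.53 in ethylene. COP1 had one just outside its edge (2:13977728-13978076), with 11.2 and 13.1. Both pileups (82.7 and 80.1) lay close to the limit, and both genes had a reChIP summit elsewhere in their window. The histone acetylation, housekeeping, photosynthesis and floral lists gave no gene at a site.

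Genes were also grouped into 11 classes by words in their names. Protein kinases were given by sites at 25 of 292 (8.56%, 5.62 to 12.4), beside 5.28% of all protein-coding genes, and peaks with a reChIP peak gave 18. The counting intervals of the other 10 classes included 5.28%. With 11 classes looked at, these intervals are a description and not a test. The background took in all protein-coding genes, of which 40.5% had a name, while the classes could hold only genes with a fitting symbol or synonym. IRE1A (2:7617131-7617431), a kinase and ribonuclease that senses unfolded proteins in the endoplasmic reticulum, had a normalised pileup of 16.8 in air and 17.4 in ethylene. Transcription factors gave 28 of 593 (4.72%). They included BZIP28 (3:3379180-3379578), a membrane-bound factor of the same stress response, with 18.0 in air and 20.8 in ethylene, and the heat shock factor gene HSF4 with 22.5 in both. HSF1, another heat shock factor gene, had 19.6 in air and 16.5 in ethylene.

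Transporters and channels gave 23 of 390 genes (5.90%) and cytochrome P450 genes 11 of 232 (4.74%), led by CYP77A5P (pileup 116) and CYP81D4 (108). Vesicle traffic genes gave 9 of 137 (6.57%), beside 14 at peaks with a reChIP peak, among them the exocyst gene EXO70H6 (122) and SYP121 (113), a plasma membrane syntaxin. Ubiquitin and proteasome genes gave 7 of 228 (3.07%, 1.24 to 6.22), led by the F-box gene AUF1 (140) and the ubiquitin ligase gene RDUF1 (107). Ribosomal protein genes gave 2 of 67, RPL18AA (94.6) and RPS2 (87.8). The RNA-binding class gave 3 of 45, with RBP47C' (87.0) and the circadian regulator GRP7 (82.7) the highest. The disease resistance class gave 1 of 13, RPS4 (95.5), and the pentatricopeptide class 1 of 13, PNM1 (93.8). Heat shock factors and chaperones gave 5 of 71.

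At the limit itself, 33 sites were tied at the lowest pileup of 80.1; the first 5 in chromosome order lay at AT1G18390, the phosphatidylinositol 4-kinase gene ATPI4K ALPHA, the proteasome subunit gene RPN12a, AT1G72790 and AT1G79950. The peaks just below it, which also overlapped an ethylene peak and no reChIP peak, were 31 tied at 79.3, of which the first 5 lay at AT1G07970, AT1G16850, AT1G19290, PME2 and GLIP5. Within 2 tags of the limit there were 81 sites inside and 63 peaks outside. The highest control levels under sites were at the higher WAVH1 site (5.21 times the list median), at AT2G36220 and at AT1G14430 (4.79 times). Their air folds were 2.06, 1.73 and 1.97, so these sites were high in pileup over a control that was high as well.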

How the data were processed

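The data were 4 peak lists of 4 libraries, 1 per group; the 2 inputs had no list. The submitters' processing notes name BWA, MACS2 2.1.0.20150603 and TAIR10. MACS2 compared each library with 1 control, with a p cutoff of 0.01 and at most 1 tag per position, per the file headers. The pileup is a deposited signal in tags that MACS2 scaled down to the smaller of library and control, per the file headers. The −log10 of the p-value and q-value at the summit were computed by MACS2, per the file headers. The fold enrichment is a ratio of pileup to local control that the authors' MACS2 run computed. Groups followed the sample titles; in the ethylene samples another field says air.

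Normalised pileup is the pileup per 1000000 tags of the library it was scaled to. The control level is (pileup + 1) / fold − 1. Where several ethylene peaks overlapped a site, the one with the highest pileup was used. Ratio intervals are Clopper-Pearson intervals on whole tags. Genes were taken from RefSeq (assembly TAIR10.1, coordinates not printed); 105 of 105 list genes matched by locus tag. Gene classes were found by words in symbols and synonyms. Named sites were the 12 highest by air pileup, 8 by ethylene fold, 5 at each end of the ratio, 5 on each side of the limit, 4 nearest to and 4 farthest from a reChIP peak, 3 of highest control level, and the first per list (up to 4) and class (up to 2). The members and lists were chosen with earlier results of these data known, and the ratio limits of 1.2 and 0.833 after the ratios had been seen. The overlap, ratio and gene placement steps were tested on simulated peaks. Python 3.11.15 with numpy, pandas and scipy was used.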

Additional observations from a re-analysis of the deposited data

How the results depend on the processing

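Of 24 alternatives, 16 left the number of sites, the median ratio, the share at gene edges or the number of genes within 1.5 times (counts) or within a 95% interval over the sites that served only as a limit (values). The number of sites was 1825 with a pileup limit of 60 and 434 with 100. Ranking by fold gave 1107 sites, of which 411 were among the 966. With reChIP peaks of q at most 0.05 only, 1206 peaks met the rule, or 58.3% of the high shared peaks. The median ethylene to air ratio was 0.992 with fold in place of pileup, which rests on different controls, and 1.12 as a share of the pileup ceiling, an alternative chosen after seeing the data. The share of summits inside an edge was 25.2% within 100 bp and 79.6% within 500 bp, and the number of genes was 891 with summits inside genes only and 941 with the nearest gene only. The planned motif search was not run, because no sequence was used here. No paired analysis was possible because each group had 1 library. The reChIP libraries kept the fewest tags. A pileup of 5 or less was found at 72.3% of reChIP peaks in air and 79.9% in ethylene. The part of this depth in the shares without a reChIP peak was not tested.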

Other observations

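Besides protein-coding genes, 45 site summits (4.66%) lay in annotated long noncoding RNA genes, beside 4.09% of high shared peaks with a reChIP peak and 3.47% of all air ENAP1 peaks. Pseudogenes held 3 site summits and transcribed pseudogenes 2, and tRNA, snRNA, snoRNA and miRNA genes held none, beside 3, 4, 2 and 4 of the 9712 air peaks. A further 71 air ENAP1 peaks with a pileup of at least 80 overlapped no ethylene ENAP1 peak and were not among the sites. The ethylene ENAP1 peak of 12 sites overlapped a reChIP peak at a part that the air peak did not cover.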
